A study of Mus musculus with 12 samples.

Results

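The interferon-induced genes and GTPases were taken as the array probes whose gene name starts with Gbp, Ifit, Ifi, Irf, Oas, Iigp, Irgm, Isg or Mx followed by a digit. This rule on names chose 78 of the 41174 transcript probes and 54 of the 27373 gene names, and it used no measured value. The study applied a solution to the shaved back of male C57BL/6 mice (C57BL/6J in the sample labels), which were 8 weeks old, and hybridised whole-skin RNA to mouse 4x44K two-colour arrays. The treated groups received 200 µL daily of either 3% minoxidil (MXD), a vasodilator used against hair loss, or a 10% cold vacuum extract of the cells of the cactus Notocactus ottonis (N-CE). The control group received the vehicle alone (VC), a mixture of propylene glycol, ethanol and water, and skin was taken after 1, 2 or 3 weeks (1W, 2W and 3W). All mice were of 1 strain and 1 sex and carried no genetic change. RNA of 6 mice was pooled for each group, so each of the 6 comparisons of a treatment with VC rests on 1 pool against 1 pool, hybridised on 2 arrays with the dyes exchanged. A value written with ± below is a mean of the log2 fold of treated over VC with the SD over these 2 arrays (n = 2 arrays). This SD measures the labelling and hybridisation only, since the spread between mice was lost in the pool, and no test of MXD or N-CE against VC at 1 time point was possible across animals. The 4 arrays of a week shared 1 slide, 1 scan and the same VC pool, so slide, scan and week cannot be told apart and the MXD and N-CE comparisons of a week share their control.

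Interferons are signalling proteins that cells release on sensing viral or bacterial nucleic acids, and T cells and natural killer cells release interferon gamma. Their receptors act through JAK kinases and STAT factors, which switch on a large set of genes. Short promoter elements called GAS are read after interferon gamma, and the interferon-stimulated response element (ISRE) is bound by IRF factors and complexes that contain them. The guanylate-binding proteins (Gbp) and the immunity-related GTPases (Iigp1, Irgm1, Irgm2 and Ifi47) respond above all to interferon gamma. Gbp proteins and effector GTPases such as Iigp1 coat and break the vacuoles of intracellular pathogens, while Irgm1 and Irgm2 are regulators. The Ifit proteins bind foreign RNA, the Oas enzymes make the messenger that activates RNase L, the Mx GTPases block viral particles and Isg15 is a ubiquitin-like tag, and these respond mainly to type I interferon. Skin holds keratinocytes, fibroblasts and resident immune cells that can carry this response.

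Promoters of the genes that moved in more than 1 comparison are shown because they can be read for these elements. RefSeq promoters (build GRCm38.p6, 250 bases before to 50 after the start) were held for 38 of the 54 genes. The ISRE was searched on both strands as the block GAAA repeated with 2 bases between the copies, and GAS as TTCNNNGAA, which reads the same on both strands. An ISRE stood in 17 of the 38 promoters (44.7%), against 1079 of all 27025 genes in the table (3.99%). A GAS match stood in 12 (31.6%) against 9.55% of all genes, and 63.2% of member promoters held at least 1 of these elements against 12.9%. Of the 16 genes with a promoter that met the thresholds for a change in any comparison, 10 held an ISRE (62.5%), and of the 22 that did not, 7 held one (31.8%). Of 12 genes that met them in more than 1 comparison, 7 had a promoter, and 6 of these 7 held an ISRE (Gbp2, Gbp3, Gbp5, Gbp7, Irgm1 and Irgm2). Gbp4, Gbp6, Gbp8, Ifi204 and Iigp1 are named only. The 180 bases before the start are given 5′ to 3′ on the strand of the gene for 6 of the 7, with ISRE and GAS matches in capitals. Gbp2 (chr3:142620483-142620662, plus strand) held 1 ISRE, Gbp3 (chr3:142559864-142560043, plus) held 2 that overlap, and Gbp5 (chr3:142496754-142496933, plus) held 1 ISRE and 1 GAS match. Irgm1 (chr11:48871421-48871600, minus) held 2 ISRE that overlap, and Irgm2 (chr11:58214797-58214976, plus) held a GAS match followed by an ISRE. Ifi47 (chr11:49076407-49076586, plus) held neither in this window. A match of letters is a description and not a binding site.
Gbp2: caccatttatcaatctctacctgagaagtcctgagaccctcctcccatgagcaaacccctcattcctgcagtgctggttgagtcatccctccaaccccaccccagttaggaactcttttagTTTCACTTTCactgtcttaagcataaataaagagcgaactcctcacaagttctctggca
Gbp3: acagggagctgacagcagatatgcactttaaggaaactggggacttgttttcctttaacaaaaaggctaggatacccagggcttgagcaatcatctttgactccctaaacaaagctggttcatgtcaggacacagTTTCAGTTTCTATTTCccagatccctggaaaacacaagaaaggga
Gbp5: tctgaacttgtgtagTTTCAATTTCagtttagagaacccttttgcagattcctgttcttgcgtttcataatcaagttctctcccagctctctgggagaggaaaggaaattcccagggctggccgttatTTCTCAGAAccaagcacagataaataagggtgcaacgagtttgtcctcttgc
Irgm1: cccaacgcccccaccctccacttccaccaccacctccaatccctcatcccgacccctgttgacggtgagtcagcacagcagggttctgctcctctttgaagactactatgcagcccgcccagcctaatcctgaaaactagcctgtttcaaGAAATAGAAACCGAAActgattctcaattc
Irgm2: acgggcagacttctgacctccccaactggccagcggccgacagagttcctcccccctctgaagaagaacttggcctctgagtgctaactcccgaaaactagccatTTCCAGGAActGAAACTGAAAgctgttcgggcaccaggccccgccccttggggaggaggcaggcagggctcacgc
Ifi47: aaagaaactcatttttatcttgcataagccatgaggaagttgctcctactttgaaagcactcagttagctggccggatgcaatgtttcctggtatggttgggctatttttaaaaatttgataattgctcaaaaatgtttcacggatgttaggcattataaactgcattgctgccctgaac

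Signals below are the processed intensities of Agilent Feature Extraction in arbitrary units, with the dye-normalized background-subtracted value of each channel. A probe was called up-regulated or down-regulated when the P-value of the scanner software was under 0.01 on both arrays, both arrays had the same sign and the geometric mean fold was above 1.5 or below 0.75. The limits of fold and P-value are those of the study, while the demand for both arrays with the same sign was set here. The calls are therefore not the study's own gene lists, and its counts differ. They test 2 pools against each other and not the treatment. Of the 78 probes, 56 (45 genes) were well above background in both groups of all 6 comparisons, and 10 probes, among them every probe of Oas1g and Oas1h, were not in any channel. In single comparisons 56 to 63 probes were above background in both groups. No member spot was saturated or an outlier. Members with probes of 1 sequence family can share signal, such as the Oas1 genes, the Gbp genes and the Ifi genes of chromosome 1. Cross-hybridisation was not tested. Across the 12 arrays, 59.1% to 67.5% of probes were well above background in the treated channel and 56.2% to 69.0% in the VC channel. The exchanged arrays of N-CE 2W did not repeat each other, with a correlation of -0.17 over all probes and -0.14 over 59 member probes, against 0.71 and 0.77 over 55 member probes for MXD 2W. These correlations are across probes, which are not independent.

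Changes among the members were seen mainly after 2 weeks of MXD, where they were lower than VC, and after 1 week of N-CE, where they were higher. After MXD 2W 29 of 78 probes (37.2%, 25 genes) were down-regulated and 0 were up-regulated, while over all tested probes 5.82% were down-regulated and 4.04% up-regulated. After N-CE 1W 14 of 78 probes (17.9%, 13 genes) were up-regulated and 0 down-regulated, against 0.292% and 1.49% of all probes. After MXD 1W 3 probes (3.85%) were down-regulated and 0 up-regulated, against 0.765% and 0.685%. No member was called after MXD 3W, where 0.144% of all probes were up-regulated and 0.161% down-regulated, after N-CE 2W (0.0682% and 0.0511%) or after N-CE 3W (0.151% and 0.139%). A mean fold past the thresholds without a call was held by 6, 21 and 8 member probes after MXD 1W, 2W and 3W, and by 10, 5 and 12 after N-CE 1W, 2W and 3W. These include probes whose 2 arrays had opposite signs. Above background in both groups were 2, 13 and 1 of them after MXD, and 7, 0 and 4 after N-CE, in the same order. Such probes were not counted over the whole array. The 46 calls fell on 31 probes of 27 genes.

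**Figure D1:**
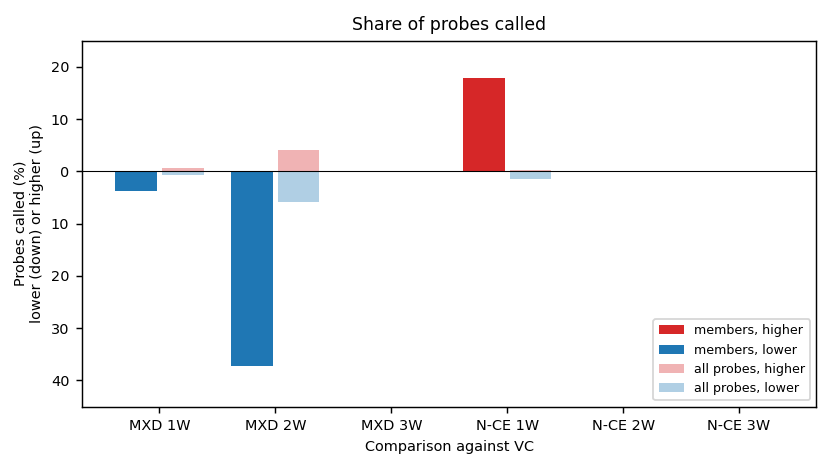
Share of probes called up-regulated or down-regulated (percent, y axis) in each of the 6 comparisons, for the 78 member probes and for all probes tested. The member bars reach 37.2% down-regulated after MXD 2W and 17.9% up-regulated after N-CE 1W, and are at 0 after MXD 3W, N-CE 2W and N-CE 3W.

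The median over genes moved in the same way. For 48 member genes above background after MXD 2W the median of the log2 folds was -0.73 (-0.69 and -0.68 on the single arrays), against 0.03 over all genes, and 41 of the 48 were below 0. For 50 member genes after N-CE 1W it was 0.43 (0.44 and 0.47), against 0.02 over all genes, and 45 of the 50 were above 0. The other medians were -0.06 after MXD 1W, -0.03 after MXD 3W, -0.07 after N-CE 2W and -0.15 after N-CE 3W, where 12 of 50 genes were above 0.

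**Figure D2:**
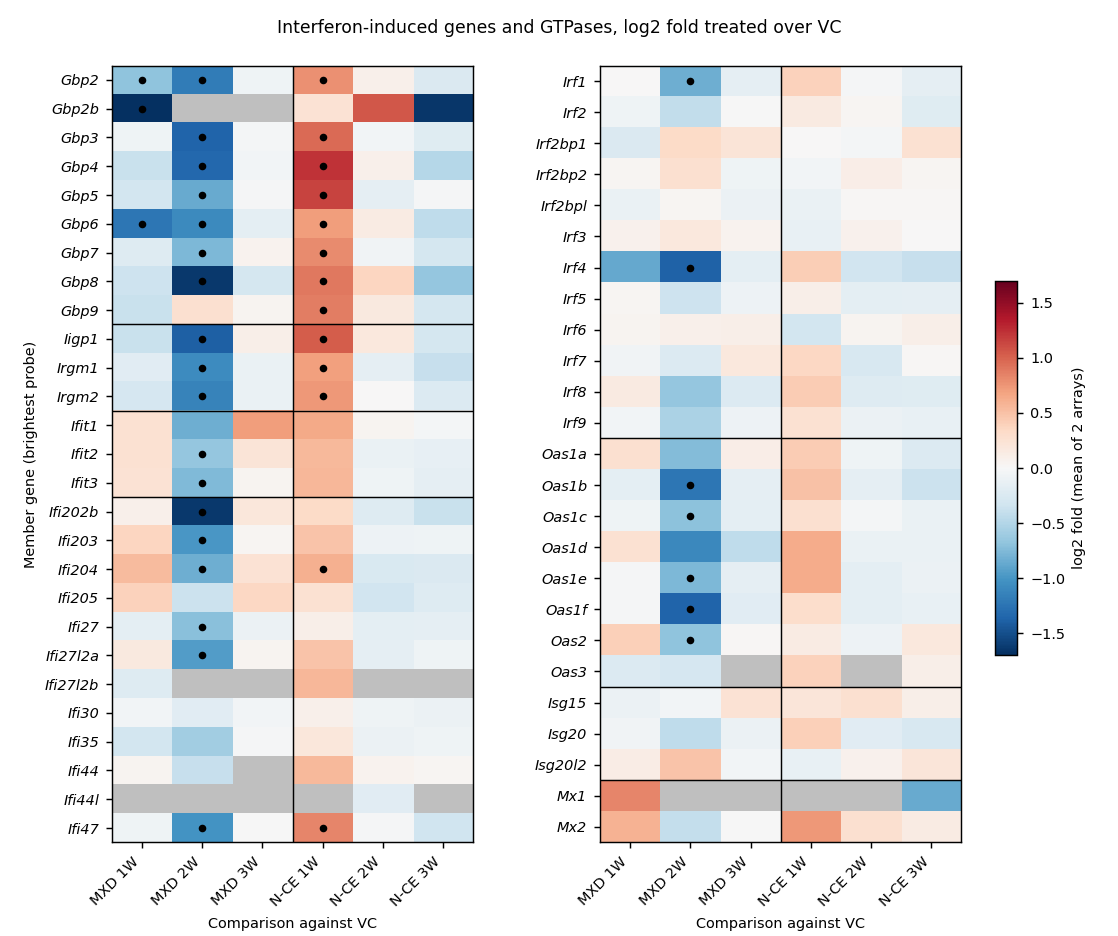
Mean log2 fold of treated over VC (colour, saturating at 1.7 on either side of 0) in the 6 comparisons (columns). Rows are member genes by family, each shown by its brightest probe, without genes that were above background in no comparison. A dot marks a called value, and grey marks values where neither group was well above background. The MXD 2W column is mostly below 0 with 25 dots and the N-CE 1W column mostly above 0 with 13 dots.

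The GTPases made up most of the members that moved in more than 1 comparison. After MXD 2W 7 of 11 Gbp probes were down-regulated, and the 8 above background in both groups had a median of -1.14. Gbp2, a GTPase that assembles on pathogen vacuoles, gave signals of 2116 and 1475 in MXD skin against 4297 and 3792 in VC skin, a log2 fold of -1.19 ± 0.24. Both MXD values lay under both VC values. Gbp3 gave 576 and 420 against 1530 and 1040 (-1.36 ± 0.07). Gbp4 gave 101 and 97.4 against 353 and 176 (-1.33 ± 0.67), so the arrays agreed on the sign while the size differed. Gbp8 gave 34.2 and 19.0 against 102 and 62.2 (-1.64 ± 0.10), and was well above background on 1 of its 2 MXD arrays. Folds of dim probes depended on the background correction, and with normexp and loess, whose offset of 50 shrinks them, Gbp8 was at -0.50, Gbp4 at -0.67 and Gbp6 at -0.44. Gbp5, which promotes inflammasome assembly (-0.85 ± 0.41), Gbp6 (-1.09 ± 0.51) and Gbp7 (-0.77 ± 0.23) were also down-regulated. The brighter Gbp9 probe was the exception among the Gbp probes above background in both groups, with 744 and 307 against 520 and 298 (0.28 ± 0.34, not called). The second Gbp9 probe had a log2 fold of -0.76 and was not called. It was not well above background in MXD skin, so the size of this fold is not usable, and the probes of Gbp9 differed in sign.

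The immunity-related GTPases followed. Iigp1 gave 1524 and 1233 after MXD 2W against 4599 and 2782 in VC (-1.38 ± 0.30). Irgm2, a regulator of the effector GTPases, gave 1813 and 1451 against 4224 and 3011 (-1.14 ± 0.12). The groups did not overlap for either gene. Irgm1, a regulator that guards the cell's own membranes, was down-regulated on both of its detected probes (-1.21 ± 0.20 and -1.07 ± 0.05), and its other probe was not above background in any channel. Ifi47, also of this family, gave 1057 and 679 against 1854 and 1595 (-1.02 ± 0.30).

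After N-CE 1W 8 of 11 Gbp probes were up-regulated, and all 10 above background in both groups had folds above 0, with a median of 0.84. Gbp2 gave 8221 and 8983 in N-CE skin against 4805 and 5243 in VC skin, a log2 fold of 0.77 on 1 array and 0.78 on the other. Gbp5 gave 976 and 1151 against 437 and 522 (1.15 ± 0.01). Gbp4 gave 423 and 502 against 211 and 184 (1.23 ± 0.31). For all 3 genes both N-CE values lay above both VC values. Gbp3 gave 1778 and 1819 against 921 and 927 (0.96 ± 0.02), and Gbp6 (0.71 ± 0.10), Gbp7 (0.80 ± 0.07), Gbp8 (0.90 ± 0.23) and Gbp9 (0.88 ± 0.44) were up-regulated as well. Of the second GTPase family, Iigp1 gave 6664 and 7893 against 3526 and 3554 (1.03 ± 0.16). Irgm2 gave 5607 and 5958 against 3218 and 3758 (0.73 ± 0.10), and Ifi47 gave 3307 and 3532 against 1877 and 1975 (0.83 ± 0.01). The groups did not overlap for these genes, and Irgm1 was up-regulated on the same 2 probes (0.67 ± 0.09 and 0.70 ± 0.05). With normexp background correction and loess in place of the processed signals, 9 of the 14 calls of N-CE 1W were kept, and those of Gbp6, Gbp8, Gbp9, Ifi204 and 1 of the Irgm1 probes were lost.

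**Figure D3:**
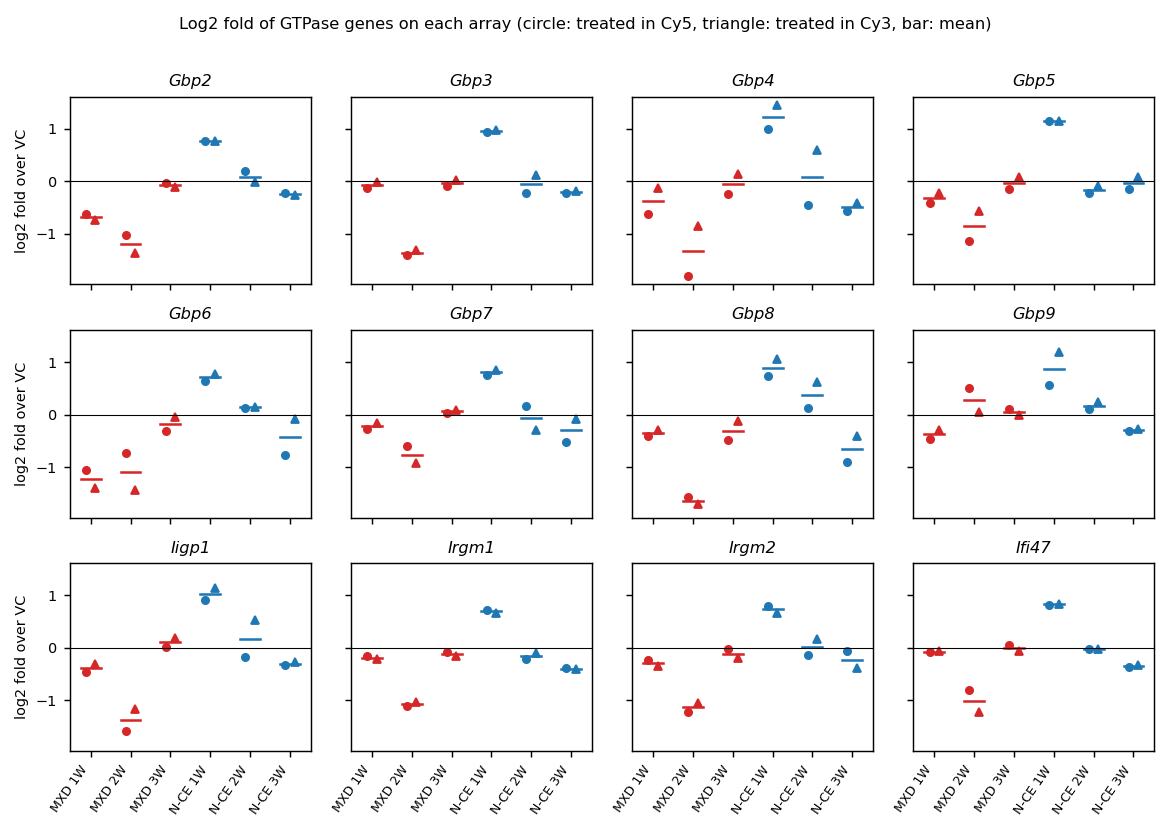
Log2 fold of treated over VC (y axis) for 12 GTPase genes, each shown by its brightest probe, in the 6 comparisons. A circle marks the array with the treated pool in Cy5, a triangle the array with it in Cy3 and a bar their mean. After MXD 2W both arrays lie below 0 for every gene shown except Gbp9, and after N-CE 1W both lie above 0 for all 12.

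The genes concerned overlapped. Of the 29 probes down-regulated after MXD 2W, 13 (44.8%) were among the 14 up-regulated after N-CE 1W (92.9% of these), which are comparisons with different VC pools from different weeks. Over all probes 90 were shared, which is 3.75% of the 2397 down-regulated after MXD 2W and 75.0% of the 120 up-regulated after N-CE 1W. They stood for 12 genes, namely Gbp2, Gbp3, Gbp4, Gbp5, Gbp6, Gbp7, Gbp8, Ifi204, Ifi47, Iigp1, Irgm1 and Irgm2. Gbp9 was up-regulated after N-CE 1W alone. Of 60 probes above background in both comparisons, 51 were below 0 after MXD 2W and above 0 after N-CE 1W, 7 were the other way round, 2 were above 0 in both and 0 were below 0 in both. The first split held for 85.0% of these member probes and for 36.5% of all 24930 probes above background in both comparisons.

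**Figure D4:**
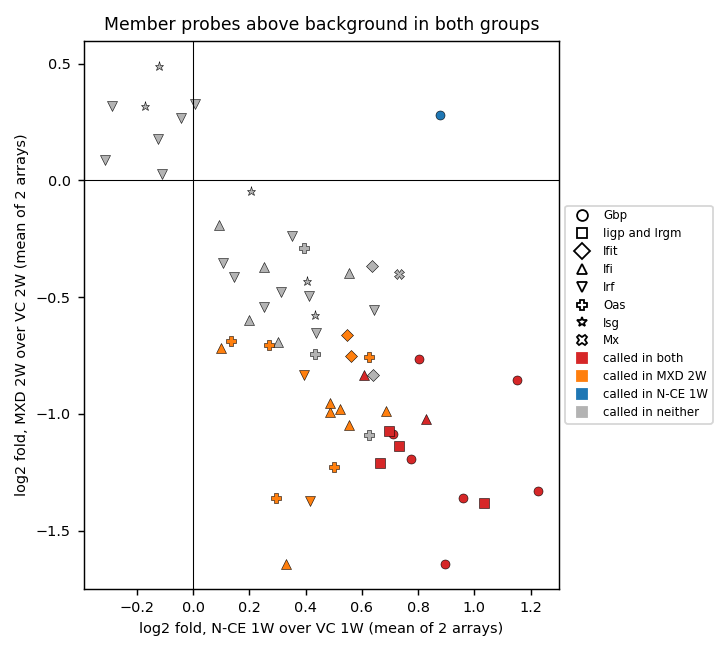
Mean log2 fold after N-CE 1W (x axis) against mean log2 fold after MXD 2W (y axis) for the 60 member probes above background in both comparisons. To the lower right, above 0 for N-CE and below 0 for MXD, lie 51 of the points.

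Among the Ifi genes 9 of 20 probes (6 genes) were down-regulated after MXD 2W, and all 14 above background in both groups had folds below 0. The probe named Ifi202b, for a member of the HIN-200 family of DNA-binding proteins, gave 424 and 411 against 1454 and 1167 (-1.64 ± 0.19). Whether this probe reads Ifi202b alone was not tested. The neighbours of Ifi202b on chromosome 1, Ifi203 (-0.99 ± 0.16) and Ifi204 (2 of 3 probes, -0.83 ± 0.19 and -0.99 ± 0.41), were down-regulated too. Ifi27l2a, a mitochondrial protein strongly induced by type I interferon, was down-regulated on all 3 probes (-0.95 ± 0.10 to -1.05 ± 0.20). Ifi27 gave 18300 and 14971 against 32912 and 22477 (-0.72 ± 0.18), and the groups did not overlap. After N-CE 1W all 15 Ifi probes above background in both groups were above 0 with a median of 0.49, and the calls were on Ifi47 and on 1 probe of Ifi204, which gave 5843 and 5895 against 3901 and 3799 (0.61 ± 0.04).

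Among genes that respond mainly to type I interferon, 5 of 13 Oas probes were down-regulated after MXD 2W, and all 8 above background in both groups were below 0 with a median of -0.75. Oas1f gave 7905 and 6113 against 21598 and 14729 (-1.36 ± 0.13), with Oas1b (-1.23 ± 0.06), Oas1e (-0.76 ± 0.03), Oas1c (-0.70 ± 0.09) and Oas2 (-0.69 ± 0.12) also called. Oas1d had a fold of -1.09 ± 0.34 and missed the P-value on at least 1 array. Of 4 Ifit probes, those of Ifit3 (-0.75 ± 0.07) and 1 of Ifit2 (-0.66 ± 0.01) were down-regulated, while Ifit1, with 51.8 and 52.0 against 122 and 70.1 (-0.83 ± 0.57), was not called, nor was the other Ifit2 probe (-0.37 ± 0.27). Mx2, the Mx gene with a probe above background, gave 70.1 and 80.0 against 95.0 and 103 (-0.40 ± 0.06, not called). No Isg probe was called, and Isg15 gave 517 and 472 against 605 and 430 (-0.05 ± 0.26), so its groups overlapped. Isg20, an exonuclease that degrades RNA, had -0.58 ± 0.22 on the probe that varied most (not called). After N-CE 1W none of the Ifit, Oas, Isg and Mx probes was called. All 4 Ifit probes (median 0.60) and all 8 detected Oas probes (median 0.41) nevertheless had folds above 0, as did Mx2 with 111 and 117 against 73.3 and 64.3 (0.73 ± 0.19). Isg15 gave 555 and 726 against 608 and 498 (0.21 ± 0.48), with opposite signs on the 2 arrays.

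Of the interferon regulatory factors, 2 of 17 probes were called, both after MXD 2W. Irf1, the factor that carries much of the interferon gamma response, gave 3971 and 2976 against 6823 and 5516 (-0.84 ± 0.08). Irf4, a factor of lymphocytes and some dendritic cells, gave 68.5 and 40.7 against 129 and 146 (-1.38 ± 0.66, and -0.45 with normexp and loess). Neither pair of groups overlapped. Irf7, the main amplifier of type I interferon, was not called, with -0.24 ± 0.29 after MXD 2W and 0.35 ± 0.34 after N-CE 1W. The Irf probes were otherwise mixed, with 10 of 17 below 0 after MXD 2W and 11 of 16 above 0 after N-CE 1W. The name rule also takes Irf2bp1, Irf2bp2, Irf2bpl and Isg20l2, which bear the prefix and are not themselves known as interferon-induced genes. Without them the member median was -0.76 after MXD 2W and 0.49 after N-CE 1W.

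After MXD 1W the down-regulated members were Gbp2, Gbp6 and Gbp2b. Gbp2 gave 3186 and 2972 against 4931 and 4934 (-0.68 ± 0.07). Gbp6 gave 104 and 65.6 against 216 and 173 (-1.23 ± 0.24, and -0.71 with normexp and loess). Gbp2b gave 60.0 and 48.9 in VC skin and was not well above background in MXD skin (12.4 and 9.99), so it was at least 1.29-fold lower. This bound sets the VC mean against the higher, per array, of the lowest signal well above background and the probe's own signal. All 9 Gbp probes above background in both groups were below 0, with a median of -0.35, and so were all 4 Iigp and Irgm probes (median -0.23). Other members lay on the other side of 0 at this time, with a median of 0.26 over the 4 Ifit probes and 0.38 over 6 Ifi probes of chromosome 1, and Mx2 at 0.60 ± 0.16, none of them called.

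After 3 weeks no GTPase was called. Gbp2 gave 2234 and 2457 against 2288 and 2664 after MXD 3W (-0.08 ± 0.06), and 1533 and 2084 against 1780 and 2503 after N-CE 3W (-0.24 ± 0.03). Taken over the 2 arrays together the signals of the groups overlapped in both comparisons, while within each array the treated signal lay under VC. Of 9 Gbp probes 8 were below 0 after N-CE 3W, with a median of -0.30. Folds past the threshold of 0.75 without the P-value on both arrays were held there by Gbp8 (-0.65 ± 0.36), Gbp4 (-0.49 ± 0.12), Gbp6 (-0.43 ± 0.48) and Gbp2b, which was not well above background in N-CE skin and was at least 1.15-fold lower than VC. On 2 probes the arrays of N-CE 3W disagreed strongly, with log2 folds of -0.37 and 4.51 for 1 of the Irf9 probes and 1.83 and -1.35 for the second Gbp9 probe. After N-CE 2W Gbp2 (0.09 ± 0.14), Iigp1 (0.17 ± 0.50) and Irgm2 (0.01 ± 0.21) each changed sign between the arrays.

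Compared within a week, MXD lay under N-CE for most members in the first 2 weeks. The difference of the mean log2 folds, MXD minus N-CE, had a median of -0.36 in week 1 (58 of 66 probes below 0), -0.59 in week 2 (54 of 66) and 0.16 in week 3 (48 of 65 above 0). Both MXD arrays lay under both N-CE arrays for 65.2% of member probes in week 1, against 28.5% of all probes, and for 71.2% in week 2, against 20.7%. In week 3 MXD lay above N-CE in this way for 33.8% of member probes, against 17.3%. These arrays share a VC pool and no test was made within a week. With the 3 weeks as replicates, limma called no member for MXD, N-CE or their difference at an adjusted p of 0.05, with 55 members tested in each fit. It called 0% of all probes in each of the 3 fits, while 4, 1 and 8 members (7.27%, 1.82% and 14.5%) had an unadjusted p under 0.05, against 10.7%, 1.42% and 7.45% of all probes. The lowest adjusted p of a member by limma was 0.441 for MXD, 1 for N-CE and 0.664 for the difference. Gbp6 had a mean log2 fold of -0.83 (SE 0.23) over the 3 weeks of MXD, with an adjusted p of 0.441 by limma. Without week 3, limma called 14 members for MXD minus N-CE, and 1889 of 23008 probes in all. The VC signal of member probes on the MXD arrays minus that on the N-CE arrays had medians of -0.02, 0.01 and 0.04 on the log2 scale in weeks 1, 2 and 3. The SD over probes was 0.16, 0.23 and 0.22, and 0 of 61, 3 of 58 and 2 of 56 member probes differed between these channels of 1 pool by a fold below 0.75. Over all probes 116 of 25130, 1659 of 24576 and 1841 of 22687 did so, although the RNA was the same.

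Other genes of the pathway were read from lists drawn up for this account. Of 12 type I and III interferon genes on the array, none was called after MXD 2W or N-CE 1W, and Ifnb1 was not above background. Ifng, which codes for interferon gamma, gave 20 and 28 after MXD 2W against 58 and 51 in VC. It was not well above background in MXD skin, was at least 1.18-fold lower and was not called. The paper lists Ifng among its most down-regulated genes after MXD 2W and in the last week of both treatments. Here Ifng was read by its probe with the highest mean signal. Whether the paper's entry comes from the same probe was not tested. After N-CE 1W, where the GTPases were up-regulated, Ifng had a log2 fold of -0.49 ± 0.13 (not called). Of 6 interferon receptor genes, Ifngr1, a chain of the interferon gamma receptor, was down-regulated after MXD 2W (-0.78 ± 0.19), and none of the 6 JAK-STAT genes was called in either comparison. Of 5 inhibitors of the pathway, Usp18, which removes Isg15 from proteins, was down-regulated after MXD 2W (-0.84 ± 0.01). Of 12 nucleic acid sensors, Zbp1 (-1.03 ± 0.16) and Tlr7 (-0.85 ± 0.23) were down-regulated after MXD 2W, and Zbp1 was up-regulated after N-CE 1W (0.75 ± 0.21). Of 49 interferon-induced genes that the name rule leaves out, 26 were down-regulated and 0 up-regulated after MXD 2W, with a median of -0.73. Among these 26 were the GTPases Tgtp1 (-1.26 ± 0.30) and Igtp (-0.91 ± 0.06), the ubiquitin ligase Herc6 (-1.51 ± 0.32) and the chemokine Cxcl9 (-1.16 ± 0.16). After N-CE 1W 4 of the 49 were up-regulated and 0 down-regulated, with a median of 0.35. They were Tgtp1 (1.35 ± 0.19), Igtp (0.81 ± 0.04), Pyhin1 and Ido1, an enzyme that degrades tryptophan (1.41 ± 0.03).

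Markers of cell types in the skin moved in the same comparison as the members after MXD 2W. Of 5 natural killer cell markers, 3 were down-regulated (Klrb1c, Nkg7 and Klrd1, median -1.29 over the 4 above background), and their summed signal was 687 and 614 against 1650 and 1401. Ncr1, a defining marker of these cells, was not above background. Of 6 T cell markers, Cd3d and Cd3g were down-regulated and Cd4 was up-regulated, with a summed signal of 12206 and 9150 against 13150 and 13548. Of 5 macrophage markers 3 were down-regulated (16263 and 11832 against 24216 and 21938), and of 4 markers of dendritic and Langerhans cells 2 were (1362 and 1045 against 2501 and 2096). Markers of keratinocytes (2 of 4), fibroblasts (2 of 4) and skeletal muscle (3 of 3) were down-regulated as well. After N-CE 1W, Klrd1 of the natural killer markers was up-regulated (0.67 ± 0.04), with a summed signal of 1823 and 2253 against 1334 and 1545 over the list. None of the 6 T cell, 5 macrophage, 4 dendritic cell, 4 keratinocyte and 4 fibroblast markers was called in that comparison. Of 5 neutrophil markers S100a9, which stressed keratinocytes also make, was up-regulated after N-CE 1W (1.09 ± 0.03), S100a8 after MXD 2W (0.96 ± 0.10) and both after MXD 1W (2.51 ± 0.14 for S100a9), while Ngp, a defining granule gene, was not above background in these comparisons. The 3 endothelial and 3 B cell markers were not called after MXD 1W, MXD 2W or N-CE 1W. After MXD 1W, where Gbp genes were down-regulated, the 3 muscle markers were down-regulated and no marker of natural killer cells, T cells, macrophages or dendritic cells was called. The chemokine Cxcl9 was down-regulated (-0.78 ± 0.04) and Tlr7 up-regulated (0.70 ± 0.14) in that comparison. In bulk skin, fewer cells of a type and less RNA per cell cannot be told apart, and the part of these markers in the members' values was not tested.

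**Figure D5:**
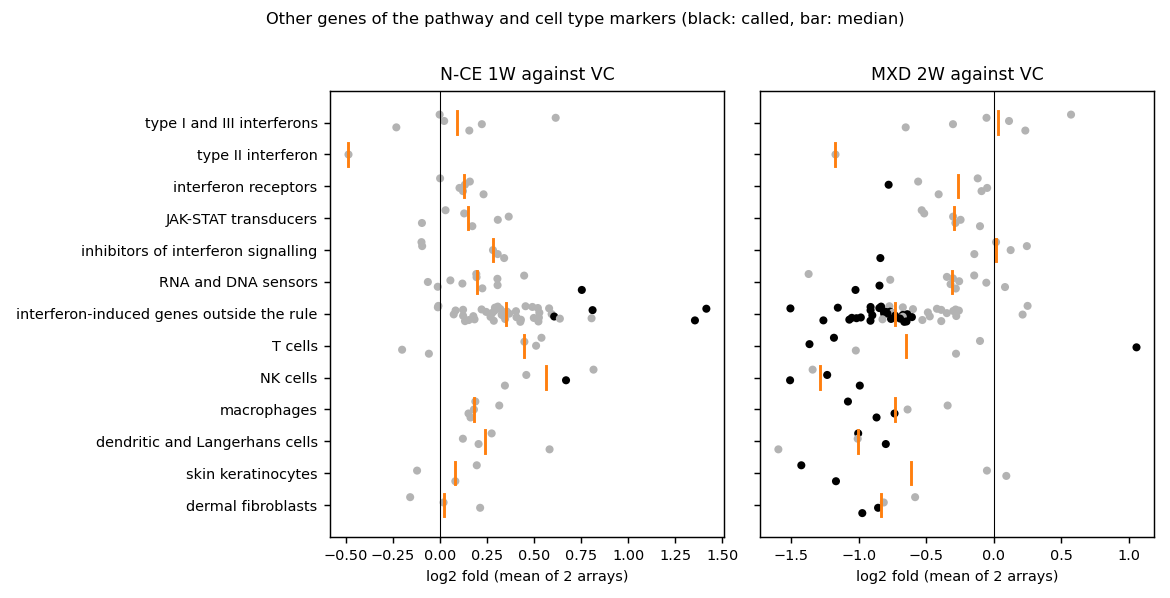
Mean log2 fold of treated over VC (x axis) for the genes of the pathway lists and of most cell type lists (rows). The lists of neutrophils, endothelium, skeletal muscle and B cells are not shown. One panel is for N-CE 1W and the other for MXD 2W, with called genes in black and a bar at the median. For interferon-induced genes outside the name rule the medians are 0.35 after N-CE 1W and -0.73 after MXD 2W.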

How the data were processed

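RNA from the dorsal skin of 6 mice per group was pooled by the authors and hybridised on 12 two-colour Agilent arrays, 2 with exchanged dyes for each of 6 comparisons. The deposited scanner files hold processed intensity values per channel, background-subtracted and dye-normalized by LOWESS in Feature Extraction (12.0.3.1 per the file headers, 11.0.1.1 in the submitters' processing notes), with a log10 ratio of Cy5 over Cy3 and an error-model P-value per spot. The value table deposited by the authors equals the log10 of processed Cy5 over Cy3 for all 520548 values within 1e-05. Here the sign was turned to treated over VC, control spots and outlier spots were left out, spots of a probe were averaged, and the 2 arrays of a comparison were averaged as 1 replicate. Each array held 43379 transcript spots, and the precision is limited by 2 arrays and 1 pool per group. Calls used the study's limits of fold and P-value, with both arrays and the same sign required here. Genes were summarised over the probes above background in at least 1 group, each gene by its probe with the highest mean signal. Across weeks, limma 3.58.1 (R 4.3.3) was fitted to the mean log2 ratio of each week over all probes above background, with Benjamini-Hochberg adjustment. Python 3.11.15, pandas 2.3.3 and numpy 2.4.6 did the rest, and the steps were tested on simulated data. Gene names are those of the array's design, and 67 of 78 member probes matched a RefSeq accession with the same symbol. Named genes were the members called in any comparison, the member of each family with the highest mean absolute log2 fold over the 6 comparisons among those above background throughout, Gbp2b, and called genes of the lists. Other genes given values, such as Irf7, Isg15, Ifit1, Irf9, Ifng and the list genes that were not called, were chosen after their values were seen. The members and lists were chosen with earlier results of these data known. Alternatives were another background correction, single arrays, stricter detection, the fold alone, other probe rules and each week left out.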

Additional observations from a re-analysis of the deposited data

Results flagged for a closer look

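Several members were called in opposite directions by the 2 treatments, and each difference is given as MXD minus N-CE in log2 fold. No difference was tested, since each group is 1 pool. Within week 1, on 1 slide and against 1 VC pool, Gbp2 differed by -1.46 and Gbp6 by -1.94. Between MXD 2W and N-CE 1W, which come from different weeks, slides and VC pools, the Gbp genes differed by -1.97 for Gbp2, -2.32 for Gbp3, -2.56 for Gbp4, -2.01 for Gbp5, -1.80 for Gbp6, -1.57 for Gbp7 and -2.54 for Gbp8. Over the same pair of comparisons Iigp1 differed by -2.42, Irgm2 by -1.87, the Irgm1 probes by -1.88 and -1.77, Ifi47 by -1.85 and Ifi204 by -1.44. For each of these probes both arrays of MXD lay below 0 and both arrays of N-CE above 0, which the rule for a call requires.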

How the results depend on the processing

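No alternative turned the sign of a called member, though on single arrays the rule for a call fixes the sign. Of the 46 calls 41 were kept with normexp and loess and 44 with detection required in both groups. On the array with the treated pool in Cy5 alone 44 were kept. The other rules kept all 46, but several of them could not lose a call. A called probe still passes without the P-value, no member spot was an outlier, and array medians were already at 0. The count of members up-regulated after N-CE 1W was 9 with normexp and loess. With the fold alone, up-regulated and down-regulated members numbered 2 and 4 after MXD 1W, 2 and 46 after MXD 2W, 3 and 3 after MXD 3W, 23 and 1 after N-CE 1W, 3 and 1 after N-CE 2W, and 1 and 5 after N-CE 3W. By the same rule 1221 and 2568 of all 41153 probes tested passed after MXD 1W. After MXD 2W 3886 and 6013 of all 41152 passed. Small member counts under these looser rules are therefore not a result about the members. On the array with the treated pool in Cy5 alone, 3 members were up-regulated after MXD 1W, 2 after MXD 2W and 1 after N-CE 3W, and 1 was down-regulated after N-CE 2W. Over all probes 767 were up-regulated on that array after MXD 1W and 3623 after MXD 2W. On the array with the treated pool in Cy3 alone, 1 member was up-regulated after MXD 1W, 1 after MXD 2W, 23 after N-CE 1W, 4 after N-CE 2W and 1 after N-CE 3W, while 1 was down-regulated after N-CE 2W and 2 after N-CE 3W. Over all probes 672 were up-regulated on the Cy3 array after MXD 1W and 3059 after MXD 2W. For MXD 3W and the N-CE comparisons no count over all probes stands beside these alternatives. Their member counts under these alternatives are therefore not read as a result about the members. The member medians with normexp and loess were -0.04 after MXD 1W, -0.48 after MXD 2W, -0.037 after MXD 3W and 0.21 after N-CE 1W. With VC averaged over the 4 arrays of the week, an alternative chosen after seeing the data, they were -0.026, -0.49, -0.015 and 0.24 in the same order, and -0.10 after N-CE 3W. On the Cy3 array alone they were -0.045, -0.68, -0.025 and 0.47, and -0.19 after N-CE 3W, and on the Cy5 array alone -0.69 after MXD 2W and -0.024 after MXD 3W. With all probes of a gene averaged they were -0.71 after MXD 2W and 0.46 after N-CE 1W, and without Irf2bp1, Irf2bp2, Irf2bpl and Isg20l2 -0.76 after MXD 2W, -0.020 after MXD 3W and 0.49 after N-CE 1W. The cause of these shifts was not tested. Leaving out a week each, limma called 0 to 14 members for MXD minus N-CE, the 14 without week 3, and 0 for each treatment against VC. With both treatments in 1 fit and the slide as a random replicate block, limma called 0 members in all 3 tests, as it did without the block. The limits are 1 pool per group and 2 arrays per comparison, and members near background have no usable fold.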
